A study of Mus musculus with 2 samples.

Results

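The 10 genes described here are Fos, Fosb, Jun, Junb, Egr1, Atf3, Ier2, Zfp36, Dusp1 and Klf6, immediate early response genes that were chosen by name out of 55415 genes in the deposited tables. All 10 were found by symbol, and all 10 had at least 200 UMIs (unique molecular identifiers, each counting 1 captured transcript) in the biliary cells, as did 9318 genes in all. The cells are biliary epithelial cells of mouse liver, the lining of the bile ducts, in a library with the label Sox9cKO and another with the label Sox9con, 1 of each. The series describes the former as deficient in Sox9, a transcription factor of these cells, and the latter as control. The driver of the deletion, the strain, the age, any treatment and the number of animals behind each library are not given in the sources used here. Each group is 1 library, so no test of the genotypes was possible and no p-value is given.

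Immediate early genes are transcribed within minutes of a growth factor, stress or calcium signal, without new protein synthesis. The signal runs through kinase cascades to factors already present in the nucleus, such as serum response factor with its ternary complex partners, CREB, and Jun with ATF2. The first products are transcription factors that switch on a later set of genes, together with inhibitors that end the response, and most of the transcripts are short-lived. Fos and Fosb encode partners of the Jun proteins in AP-1, the dimer that binds TGANTCA sites. Jun and Junb encode those Jun proteins, with Jun the stronger activator. Egr1 encodes a zinc finger factor of serum and stress responses, Atf3 a stress-induced factor of the ATF/CREB family, and Klf6 a zinc finger factor described as an early gene of activated hepatic stellate cells. Ier2 encodes a small nuclear protein of the early response. Zfp36 (tristetraprolin) marks AU-rich transcripts for decay, and Dusp1 removes phosphate from the MAP kinases. In liver, the group is known for its induction after partial hepatectomy, and its transcripts are also known to accumulate while tissue is digested into single cells.

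The sequences just upstream of 5 members are shown because short elements for the upstream factors lie in them. They are the 250 bases before the annotated start, 5′ to 3′ on the gene's own strand, from RefSeq on build GRCm38.p6. The deposited counts name build GRCm39, so the coordinates serve only to locate the sequence. Fos lies on the plus strand at chr12:85473640-85473889. Atf3 (chr1:191183334-191183583), Fosb (chr7:19310046-19310295), Jun (chr4:95052223-95052472) and Dusp1 (chr17:26508473-26508722) lie on the minus strand. Capitals mark TGACGTCA (the full palindromic cyclic AMP response element), TGACATCA (the variant bound by Jun with ATF2), and TGACG, the core of that element, which in Atf3 is printed as its reverse complement. They also mark the TATA box of Fos, whose letters were searched as TATAAA.
Fos: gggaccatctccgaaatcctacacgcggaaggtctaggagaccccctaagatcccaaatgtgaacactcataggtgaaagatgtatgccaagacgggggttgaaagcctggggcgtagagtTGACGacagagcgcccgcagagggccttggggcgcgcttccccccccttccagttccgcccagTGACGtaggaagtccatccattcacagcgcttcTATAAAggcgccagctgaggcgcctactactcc
Atf3: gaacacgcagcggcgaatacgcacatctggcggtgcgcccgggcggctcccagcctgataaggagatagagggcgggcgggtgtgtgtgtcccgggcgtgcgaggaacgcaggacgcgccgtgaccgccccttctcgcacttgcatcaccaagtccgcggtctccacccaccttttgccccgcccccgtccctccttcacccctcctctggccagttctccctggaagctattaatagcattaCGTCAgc
Jun: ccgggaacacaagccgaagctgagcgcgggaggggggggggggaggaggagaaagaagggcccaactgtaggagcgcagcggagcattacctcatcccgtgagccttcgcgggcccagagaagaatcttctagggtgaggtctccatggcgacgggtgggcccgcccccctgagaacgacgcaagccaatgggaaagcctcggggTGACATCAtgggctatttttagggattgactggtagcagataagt
Fosb: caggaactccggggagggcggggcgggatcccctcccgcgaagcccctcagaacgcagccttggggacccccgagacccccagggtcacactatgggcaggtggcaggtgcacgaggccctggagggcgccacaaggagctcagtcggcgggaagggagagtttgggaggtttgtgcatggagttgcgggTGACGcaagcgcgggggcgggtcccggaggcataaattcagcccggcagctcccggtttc
Dusp1: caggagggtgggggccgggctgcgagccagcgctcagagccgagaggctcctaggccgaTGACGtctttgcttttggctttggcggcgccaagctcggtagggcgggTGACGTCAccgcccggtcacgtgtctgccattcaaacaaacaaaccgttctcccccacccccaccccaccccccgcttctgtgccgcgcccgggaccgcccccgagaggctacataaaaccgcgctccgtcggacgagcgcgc

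In Fos, TGACG stood 129 and 66 bases before the start and TATAAA 33 bases before it. Atf3 held the core element 7 bases before its start on the opposite strand, and Fosb held it 60 bases before. Jun carried TGACATCA 45 bases before its start. Dusp1 held the full TGACGTCA 143 bases before its start, within which 2 of its TGACG matches lie. The RefSeq table held 8 of the 10 members (Egr1 and Ier2 were not matched), and all motifs were searched on both strands of the same 250 bases. TGACG was present in 5 of the 8 (the genes above other than Jun, plus Junb), against 17.8% of all 32841 promoters in the table. TGACATCA was present in 2 (Jun and Klf6), against 2.93% of promoters, and TGACGTCA in 1, against 1.55%. A CArG box, the site of serum response factor, was present in 1 (Zfp36), against 1.47%, and GCGNGGGCG, the EGR site, in 2 (Fosb and Zfp36), against 4.70%. TGANTCA, the AP-1 site, was found in 0 of the 8, against 6.75% of promoters, and TATAAA in 1, against 12.4%. A match is a run of letters and not a measured binding site. Sites further upstream than 250 bases were not searched, so a member without a match here may hold the element elsewhere.

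The cells kept were 2705 of 2740 (cKO-labelled) and 3503 of 3622 (control-labelled), and 0 cell barcodes were shared between them. Of these, 2598 and 3371 were biliary, 82 and 114 endothelial-like, and 25 and 18 belonged to clusters left unnamed. All biliary clusters held the 12 biliary markers at 50 CPM or more (CPM, counts per 1000000 UMIs of the cells summed). Biliary cells had a median of 5124.5 UMIs (cKO-labelled) and 3226 UMIs (control-labelled). Sox9 itself stood at 122 CPM against 146 CPM in biliary cells, with wells at 101 to 145 CPM and 74.3 to 220.3 CPM that overlapped, so the labels are used here as names of the libraries. A Sox9 UMI can also come from outside a deleted part of the gene, and the deleted part is not given in the sources used here. The cells of each library entered barcoding in wells of their own, 5 cKO-labelled (A11, A12, B1, B2, B3) and 4 control-labelled (D9 to D12). Wells are parts of 1 library and not replicate animals, and well and library cannot be told apart.

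The members were concentrated in particular biliary cells, in both libraries. Biliary cells were grouped into 9 clusters without using Sox9, the members or 80 other early response and heat shock genes, and 8 of the clusters had at least 50 cells in at least 1 library. The members' summed level was highest in 3 of those clusters, and the highest cluster was 6.06-fold (cKO-labelled) and 4.50-fold (control-labelled) above the lowest. The first was led by Adgrv1 and Ctnna2, the second by Dnah12 and Fanci, and the third by Hp and Serpina1b, which encode plasma proteins. In the Adgrv1 cluster the summed level was 11646 CPM in the 77 cKO-labelled cells and 11648 CPM in the 695 control-labelled cells. In the Dnah12 cluster it was 8831 CPM (64 cells) and 8386 CPM (180 cells). In the Hp cluster, which held 511 cKO-labelled cells and 0 control-labelled cells, it was 7849 CPM.

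The other clusters lay lower and close together. Summed levels there ran from 1922 CPM in the Ltf cluster to 3620 CPM in the Car4 cluster of the cKO-labelled library, and from 2589 CPM in the Muc6 cluster to 3029 CPM in the Car4 cluster of the control-labelled library. The Slit3 cluster, the largest of the cKO-labelled library with 1188 cells, stood at 2329 CPM. The Gm42031 cluster, with 744 control-labelled cells, stood at 2603 CPM. The 95% Poisson interval of each sum was narrow (11511 to 11786 CPM for the Adgrv1 cluster of the control-labelled library) and covers counting error only.

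The high clusters were high in every well with at least 20 of their cells. In the control-labelled wells D9, D10, D11 and D12 the Adgrv1 cluster stood at 13982, 9473, 10773 and 11402 CPM. The Dnah12 cluster stood at 8418, 7699, 8382 and 9085 CPM in the same wells. In the cKO-labelled wells A11, A12, B1, B2 and B3 the Hp cluster stood at 6144, 6856, 9955, 7490 and 8704 CPM. The Adgrv1 cluster of the cKO-labelled library had enough cells only in B3 (6794 CPM in 21 cells). The highest well of any low cluster was the Car4 cluster in B3 (4004 CPM), so wells of the high and low clusters did not overlap.

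These cells held a large share of the members' transcripts. The clusters were picked by the members' summed level, so a share of member UMIs above their share of all UMIs follows from that choice. The Hp cluster was 19.7% of the cKO-labelled biliary cells and 23.8% of their UMIs, but 46.3% of their member UMIs. The Adgrv1 cluster was 20.6% of the control-labelled biliary cells and 19.4% of their UMIs, but 47.6% of their member UMIs. It was 2.96% of the cKO-labelled cells. Different clusters thus held the largest share of member UMIs in the 2 libraries. A cluster with cells of 1 library, such as the Hp cluster, may reflect that library as a whole.

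Clusters were formed without the members, but other genes that vary with the members across cells, such as Ifrd1, were used in forming them. Markers of other cell classes were counted in the 3 high clusters. Of 11 endothelial markers, 0 reached 50 CPM in the Hp and Adgrv1 clusters and 1 did in the Dnah12 cluster, where their sum was 308 CPM (cKO-labelled) and 325 CPM (control-labelled). Of 10 macrophage markers, at most 1 reached 50 CPM, and 6 to 8 were at 0. Of 10 hepatocyte markers, 3 reached 50 CPM in each high cluster. As many did in the Slit3 cluster of the cKO-labelled library and in the Car4 and Gm42031 clusters of the control-labelled library. In the control-labelled library their sum was 1269 CPM (Adgrv1) and 1540 CPM (Dnah12), above every low cluster (529 to 1145 CPM). In the cKO-labelled library it was 1573 CPM (Hp), 1328 CPM (Dnah12) and 776 CPM (Adgrv1), against 1329 CPM in the Slit3 cluster and 523 to 742 CPM in the other low clusters. The hepatocyte sum was thus above every low cluster in both high clusters of the control-labelled library, but only in the Hp cluster of the cKO-labelled library. The part of hepatocyte transcripts in the member levels was not tested. Median depth was highest in the Hp cluster (6142 UMIs), and median mitochondrial share was 5.09% in it, 4.68% and 4.87% in the Adgrv1 cluster, and 7.12% and 5.96% in the Dnah12 cluster. The part of depth and RNA quality in these levels was not tested.

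**Figure D1:**
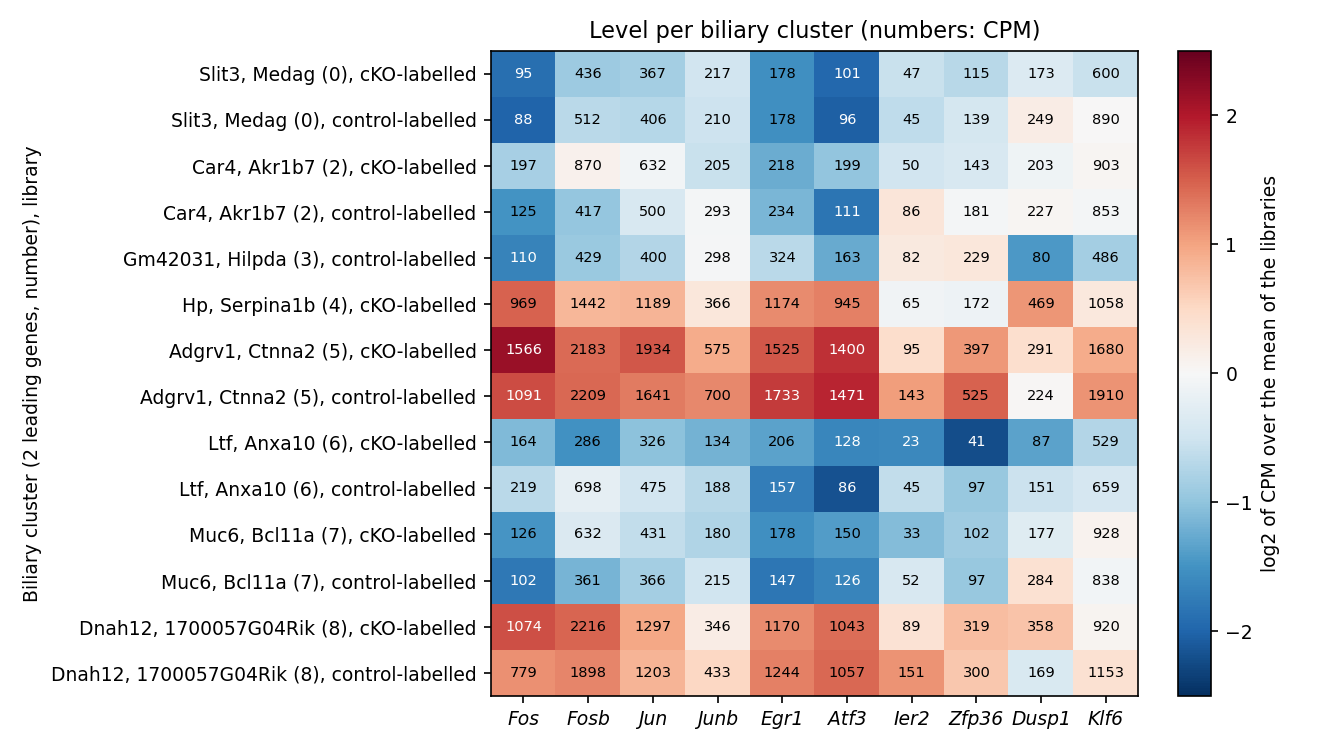
Level of each member (columns) in biliary clusters with at least 50 cells of a library (rows, named by 2 leading genes). The number in each cell is the level in CPM, and the colour is log2 of that level over the mean of both libraries. The rows of the Hp, Adgrv1 and Dnah12 clusters are red for most members in every library, while Dusp1 is near the mean in the Adgrv1 cluster of the control-labelled library (224 CPM).

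The members differed in how strongly they followed these clusters. Of all genes tested, 4.59% to 5.39% were at least 2-fold higher in the Adgrv1, Dnah12 or Hp cluster than in the other biliary cells of the library (4.59% and 5.39% for the Adgrv1 cluster in the control-labelled and cKO-labelled library, 4.6% and 4.68% for the Dnah12 cluster, 5.29% for the Hp cluster). Of the 10 members, 8 and 8 passed that fold in the Adgrv1 cluster, 4 and 6 in the Dnah12 cluster, and 6 in the Hp cluster. The 3 clusters were picked by the members' own summed level. These counts therefore follow in part from that choice, and they describe only which members shared in it. In the other clusters 0 members passed it, where 0.876% (Slit3), 0.769% (Car4), 5.53% (Ltf) and 2.28% (Muc6) of genes did in the cKO-labelled library, and 1.47% (Slit3), 0.682% (Car4), 1.29% (Gm42031), 5.19% (Ltf) and 2.98% (Muc6) in the control-labelled library.

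Fos and Atf3 had the widest range over clusters of each library. Fos ran from 95.1 CPM in the Slit3 cluster to 1566 CPM in the Adgrv1 cluster of the cKO-labelled library (16.5-fold), and from 87.8 to 1091 CPM between the same clusters of the control-labelled library (12.4-fold). Atf3 ran from 101 to 1400 CPM (13.8-fold) and, with its lowest level in the Ltf cluster, from 86.4 to 1471 CPM (17.02-fold). Egr1 ranged over 8.58-fold and 11.8-fold. Fos, Atf3 and Egr1 all had their highest level in the Adgrv1 cluster of each library.

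The remaining AP-1 subunits spread less. Fosb spanned 7.76-fold and 6.12-fold, Jun 5.93-fold and 4.48-fold, and Junb 4.30-fold and 3.73-fold. Fosb of the cKO-labelled library was highest in the Dnah12 cluster (2216 CPM), just above the Adgrv1 cluster (2183 CPM), a gap within their counting intervals.

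Among the inhibitors, Zfp36 spanned 9.79-fold and 5.41-fold and peaked in the Adgrv1 cluster of each library (397 and 525 CPM). Dusp1 had another order. It was highest in the Hp cluster of the cKO-labelled library (469 CPM) and in the Muc6 cluster of the control-labelled library (284 CPM), where the summed members were lowest. Its level in the Adgrv1 cluster of the control-labelled library was 224 CPM, close to the 227 CPM of the Car4 cluster. Klf6 spanned 3.18-fold and 3.93-fold, and Ier2 ranged over 4.195-fold and 3.36-fold at levels under 151 CPM.

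From cell to cell, most of the members varied more than most genes. To remove depth, biliary cells were thinned to 2000 UMIs each, which left out 139 cKO-labelled and 566 control-labelled cells. The loss was uneven over clusters. In the control-labelled library 545 of 695 Adgrv1, 132 of 180 Dnah12 and 767 of 1017 Car4 cells stayed. For the Slit3 and Muc6 clusters it was 91 of 92 and 421 of 442. The part of this loss in the results from thinned cells was not tested. The Fano factor, the variance of UMIs over their mean (near 1 for counting noise alone), had a median of 1.10 and 1.12 over all genes in the cKO-labelled and control-labelled library, with a 95th percentile of 1.72 in each. Fos stood at 8.51 and 6.32, Egr1 at 5.59 and 7.09, Atf3 at 5.33 and 5.60, Jun at 5.47 and 5.79, and Fosb at 4.84 and 6.31. These 5 were above the 99th percentile of all genes in each library. Klf6 (2.35 and 3.04) and Dusp1 (2.09 and 2.01) were also above the 95th percentile in each. Junb and Zfp36 were above it only in the control-labelled library (1.94 and 1.99, against 1.52 and 1.55), and Ier2 was near the median (1.132 and 1.2001). The genes compared were not matched to the members in level, so the part of level in these ranks was not tested. Measured within wells, the factors moved little (Fos 8.46 and 6.33), so the spread lay between cells of the same well.

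Fos transcripts lay in few cells. After thinning, 77.6% (cKO-labelled) and 74.5% (control-labelled) of biliary cells had 0 Fos UMIs, 3.99% and 3.64% had 5 or more, and the highest cells had 35 and 34. The top 10% of cells held 82.0% and 75.4% of all Fos UMIs. Klf6 was spread over more cells: 34.2% and 29.2% of cells had 0 UMIs, and the top 10% of cells held 37.3% and 38.4% of its UMIs. For the summed members the median cell had 5 and 6 UMIs of its 2000, and the highest cells had 135 and 175.

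The high clusters differed in how mixed they were. In the Hp cluster the median thinned cell held 8 member UMIs and the cell at the 90th percentile held 43.2, with a Fano factor of 24.6. In the Adgrv1 cluster of the control-labelled library these were 14, 60 and 26.3. The Dnah12 cluster of that library was more even, with a median of 13, a 90th percentile of 33 and a Fano factor of 8.98, and its cell at the 10th percentile held 6 member UMIs. In the Slit3 cluster of the cKO-labelled library the median was 4, the 90th percentile 9 and the Fano factor 3.68. The median Hp cell thus lay below the 90th percentile of the Slit3 cells, while a part of the Hp cells held many more.

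The members were found together in the same cells. In thinned cells the number with a UMI of both members of a pair was set against the number expected if the pair were detected independently within each well. All 45 pairs were found together more often than expected in each library, with a median ratio of 1.22 for the cKO label (range 1.04 to 1.90) and 1.202 for the control label (range 1.03 to 1.70). Over all pairs of genes detected in at least 5% of the thinned cells the median ratio was 1.0 in each, and the 95th percentile was 1.28 and 1.26. The members paired with non-members had a median of 0.99 in each library.

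Fos and Atf3 were the pair most often found together beyond expectation: 266 cells against 140 expected in the cKO-labelled library, and 364 against 215 in the control-labelled library. Fos with Egr1 followed a similar course, with 294 cells against 179 and 430 against 277. Fosb and Jun, each detected in about as many cells as not, were near independence (697 against 642, and 859 against 782). Pairs of abundant genes cannot reach high ratios, so the order of the pairs moves with how often each gene was detected.

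Counted per cell, 8.13% of the cKO-labelled cells (200 of 2459) had a UMI of at least 7 of the 10 members, where independence within wells gives 1.497%. In the control-labelled library it was 12.6% (353 of 2805) against 3.47%. Cells with all 10 members numbered 10 and 23, where independence gives 0.01 and 0.08. Cells with 0 members were also more frequent than independence gives (3.58% against 1.13%, and 2.10% against 0.55%). The distribution was therefore wider at both ends.

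**Figure D2:**
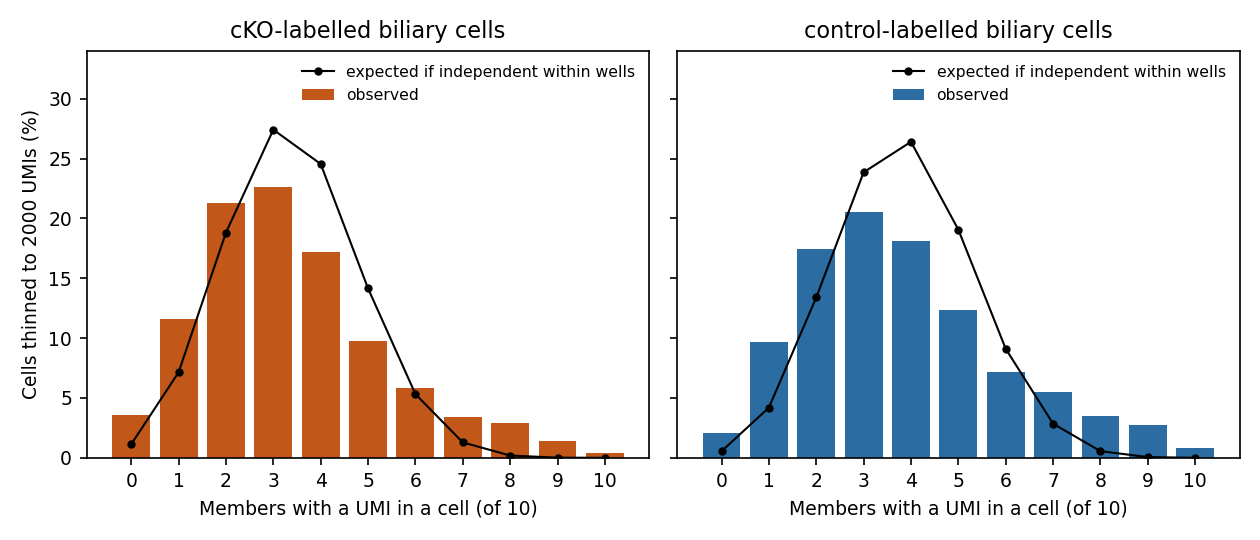
Share of biliary cells, each thinned to 2000 UMIs, by the number of the 10 members with at least 1 UMI (bars), for the cKO-labelled (left) and control-labelled (right) library. The black line is the share expected if the members were detected independently within each well. The bars exceed the line at 0 to 2 members and at 6 or more on the left, and at 0 to 2 and at 7 or more on the right.

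The cells with many members lay mostly in the high clusters. Those clusters were picked by the members' summed level in the same cells, so the shares below describe that level per cell and are no separate result. A UMI of at least 7 members was found in 25.1% of the Hp cells (125 of 499; 95% Clopper-Pearson interval 21.3% to 29.1%, counting error only). In the Adgrv1 cluster the shares were 46.3% (cKO-labelled) and 40.9% (control-labelled), and in the Dnah12 cluster 29.3% and 37.1%. In the other clusters it was 0% to 4.82%; in the Ltf cluster of the cKO-labelled library it was 0 of 104 cells, with a 95% Clopper-Pearson upper bound of 3.48%. With the expectation taken within a single cluster and its wells, 45 of 45 pairs were above 1 in the Hp cluster (median 1.22) and in the Adgrv1 cluster of the control-labelled library (median 1.12). In the Dnah12 cluster of the control-labelled library 40 of 45 pairs were above 1, with a median of 1.07. In the low clusters the medians were 1.04 to 1.14, with 26 to 39 of 45 pairs above 1. The same ratio over pairs of all genes was not computed within clusters, so these counts have no background beside them. The part of the clusters in detection together was not tested.

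The level of the members did not follow depth or mitochondrial share in the same way in the 2 libraries, each split into 3 equal sets of cells. In the control-labelled library the summed level fell from 5658 CPM in the set of biliary cells with the fewest UMIs to 4390 CPM in the set with the most, and from 5403 CPM at the lowest to 3926 CPM at the highest mitochondrial share. In the cKO-labelled library the sets by rising depth stood at 4234, 3816 and 4100 CPM, and those by rising mitochondrial share at 3712, 4048 and 4336 CPM. The mitochondrial order was thus opposite in the 2 libraries.

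Between the libraries, 8 of the 10 members were lower in the cKO-labelled biliary cells and Fos and Dusp1 were higher. The summed level was 4036 CPM, against 4756 CPM for the control label. Only Ier2 and Zfp36 were at least 1.5-fold lower, a fold that 10.4% of all genes tested passed in that direction; 0 members were at least 2-fold lower (1.77% of all genes), 0 were at least 1.5-fold higher (5.42%) and 0 at least 2-fold higher (2.18%). The members' median log2 ratio was -0.29 beside -0.07 over all genes, and 58.5% of all genes were lower at any size. For each member the 95% counting interval of the ratio was on 1 side of 0, which speaks only to the depth of these libraries.

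Ier2, Zfp36, Junb and Atf3 were the members for which every cKO-labelled well was below every control-labelled well, an order that 8.33% of all genes showed. The reverse order was shown by 0 members and by 7.61% of all genes. Ier2 stood at 36.2 to 58.9 CPM in the 5 cKO-labelled wells and at 68.6 to 105.2 CPM in the 4 control-labelled wells (49.8 against 88.8 CPM summed, 1.78-fold lower, log2 ratio -0.83, interval -0.97 to -0.70). Zfp36 stood at 100.2 to 193 CPM against 199.96 to 269 CPM (132 against 243 CPM summed, 1.84-fold lower, log2 ratio -0.88, interval -0.96 to -0.79). For Zfp36 the gap was narrow, since the highest cKO-labelled well lay just under the lowest control-labelled well.

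Junb stood at 248, 249, 254, 268 and 231 CPM in wells A11 to B3 and at 294, 349, 399.8 and 409 CPM in wells D9 to D12. Its cKO-labelled wells were close to each other, and the ratio of the sums was -0.51 on the log2 scale (interval -0.57 to -0.44). Atf3 stood at 296 to 417 CPM against 421 to 442 CPM, with a log2 ratio of -0.28 and a gap between the libraries smaller than the spread of the cKO-labelled wells.

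For the other 6 members the wells of the libraries overlapped. Fos stood at 339.8, 289.8, 377, 257 and 553 CPM in A11, A12, B1, B2 and B3, and at 348, 319, 384 and 326 CPM in D9 to D12. Its ratio of 0.08 rested on well B3, without which it was -0.13. Fosb stood at 666, 623, 978, 784 and 839 CPM, and at 1184, 609, 750.0 and 754 CPM, so well D9 alone was above every cKO-labelled well.

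Jun and Egr1 also had their highest control-labelled level in D9. Jun was 496 to 883 CPM in the cKO-labelled wells and 559 to 885 CPM in the control-labelled wells, with a log2 ratio of -0.18 that became 0.01 without D9. Egr1 was 327 to 555 CPM against 389 to 761 CPM, with a ratio of -0.32 that became -0.08 without D9. The ratio of Fosb was -0.15 and became 0.14 without D9. D9 held the most Gm42031 cells (30.7% of its biliary cells) and the highest summed level in the Adgrv1 cluster.

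Klf6 was 720.1 to 933 CPM against 735 to 1078 CPM (log2 ratio -0.30), and Dusp1 was 192 to 268 CPM against 162 to 219 CPM (log2 ratio 0.35). Dusp1 was thus the member with the largest difference in the other direction, with 1 of the 20 pairs of a cKO-labelled and a control-labelled well in reverse order. Across the 8 sublibraries, which each held cells of both libraries, Junb, Ier2, Zfp36 and Klf6 were lower in the cKO-labelled cells in 8 of 8, Dusp1 in 0 of 8 and Fos in 5 of 8. Sublibraries are parts of the same 2 libraries and not replicates. The share of all genes lower in 8 of 8 was not computed, and 58.5% of all genes were lower in the sums.

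**Figure D3:**
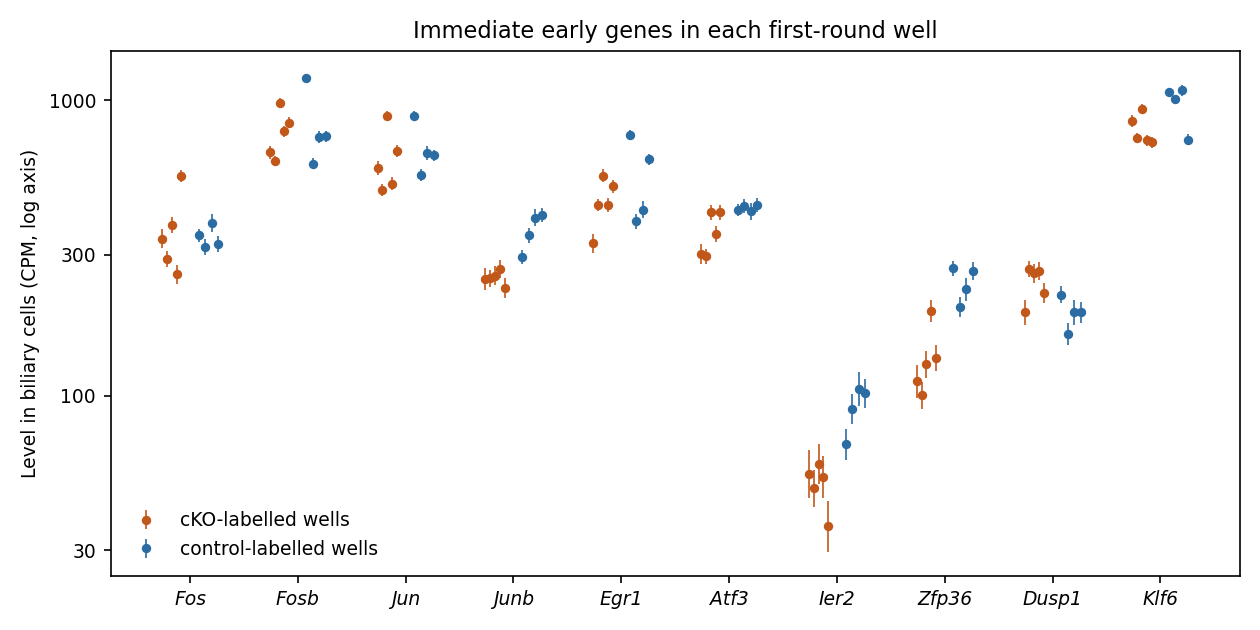
Level of each member in the biliary cells of each first-round well (CPM, log axis), with 95% Poisson intervals as bars. Orange points are the 5 cKO-labelled wells and blue points the 4 control-labelled wells. The orange and blue points do not overlap for Junb, Atf3, Ier2 and Zfp36, and they overlap for the other members.

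Held within clusters, the direction of the difference between the libraries varied between members and between clusters. There were 6 clusters with at least 50 cells of each library. Ier2 was lower in the cKO-labelled cells in 5 of the 6, each time with a counting interval below 0 (-0.59 to -0.99 on the log2 scale). Those ratios rest on only 15 to 69 cKO-labelled Ier2 UMIs per cluster. Junb was lower in 5 of 6, in 4 of them with such an interval. Both stood near 0 in the Slit3 cluster (0.07 and 0.05), where the control-labelled library had only 92 cells. Zfp36 was lower in 4, in 2 of them with an interval below 0, and Klf6 in 4, with 4 such intervals. The share of all genes lower in as many clusters was not computed, so these counts have no background beside them.

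Fos was higher in the cKO-labelled cells in 5 of the 6 clusters and lower in the Ltf cluster (-0.42). In the Adgrv1 cluster Fos stood at 1566 against 1091 CPM, and in the Dnah12 cluster at 1074 against 779 CPM. Fosb varied most between clusters, from -1.29 in the Ltf cluster to 1.06 in the Car4 cluster. Atf3 was between -0.07 and 0.84, and Egr1 between -0.18 and 0.39.

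Dusp1 had another direction in the sums than in most shared clusters. It was lower in the cKO-labelled cells in 4 of the 6 clusters, in 3 of them with an interval below 0, and higher in the Adgrv1 (0.38) and Dnah12 (1.08) clusters. At an equal mix of the clusters (a Mantel-Haenszel ratio, which takes in only clusters with cells of both libraries) its log2 ratio was -0.32, against 0.35 for the sums. The Hp cluster, which that ratio leaves out, held 1598 of the 3515 Dusp1 UMIs of the cKO-labelled library. The parts of the mix and of leaving out that cluster were not tested apart. At the same mix Fosb (0.20), Jun (0.087) and Atf3 (0.088) changed sign, and Fos stood at 0.39. Junb (-0.30), Ier2 (-0.59) and Zfp36 (-0.30) stayed negative but came closer to 0, and Zfp36 was no longer 1.5-fold lower. The summed members were lower in 3 of the 6 clusters, and the log2 ratio was -0.00 in the Adgrv1 cluster.

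**Figure D4:**
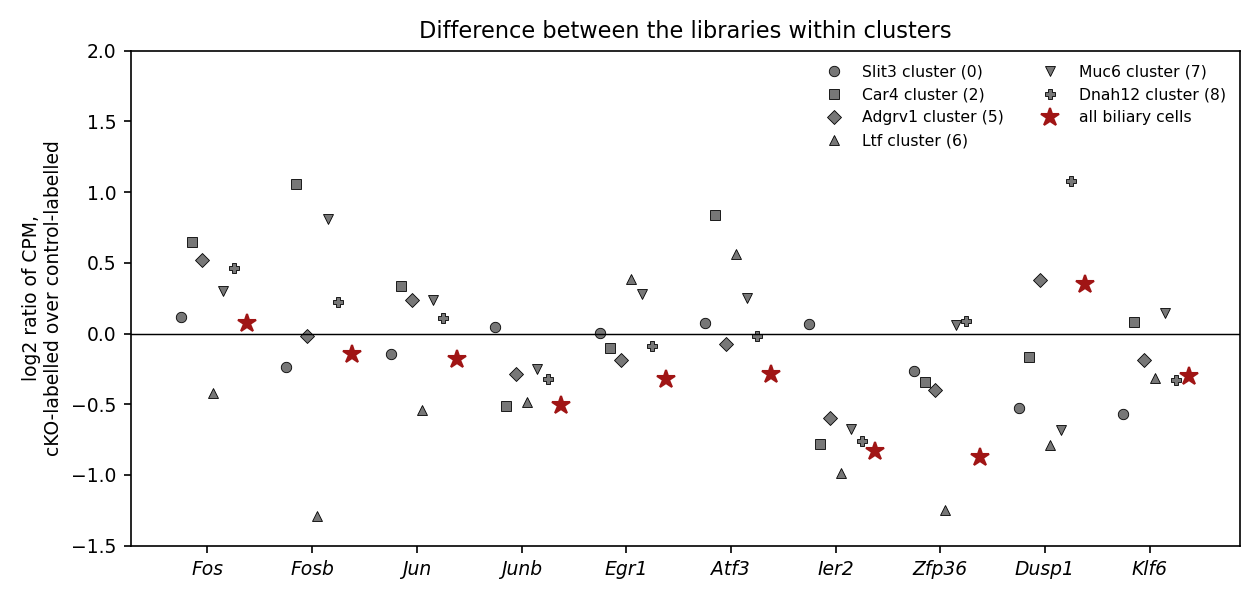
The log2 ratio of the cKO-labelled over the control-labelled library for each member in the 6 biliary clusters with at least 50 cells of each (grey) and over all biliary cells (red stars). Grey points of Ier2 and Junb lie below 0 in 5 of 6 clusters, while those of Fosb reach from -1.29 to 1.06 and those of Dusp1 from -0.79 to 1.08.

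Endothelial-like cells carried the same genes in other proportions. These cells, 82 cKO-labelled and 114 control-labelled, had all 11 endothelial markers at 50 CPM or more. They also had 7 and 8 of the 12 biliary markers at that level, with a sum of 1089 and 1377 CPM, against at least 7657 CPM in the biliary clusters of 50 or more cells. Of 9474 genes tested, 10.2% were at least 2-fold higher in endothelial-like than in biliary cells in both libraries and 22.5% at least 2-fold lower. Of the members, Junb and Dusp1 were higher by that measure and Klf6 lower.

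Junb stood at 695 CPM in cKO-labelled and 1088 CPM in control-labelled endothelial-like cells, with log2 ratios over biliary cells of 1.47 and 1.61. Dusp1 stood at 559 and 557 CPM, with ratios of 1.19 and 1.53. Fos stood at 719 and 603 CPM and had ratios of 0.999 and 0.821. Both of the inhibitors and 3 of the 4 AP-1 subunits were thus higher in the endothelial-like cells of each library than in all its biliary cells summed, Zfp36 by 1.09 and 0.62 and Jun by 0.83 and 0.41. The share of all genes higher at any size was not computed. Set against the high biliary clusters of the same library, Junb and Dusp1 were above each of them and Zfp36 lay between them. Fos was below each of them, as was Jun (1105 and 935 CPM, against at least 1189 and 1203 CPM).

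Fosb, the fourth subunit, went the other way, with 430 and 346 CPM and ratios of -0.84 and -1.30. Klf6 had ratios of -1.24 and -1.54, and stood at 334 and 335 CPM. Egr1 (0.31 and 0.01), Atf3 (-0.38 and -0.23) and Ier2 (0.83 and 0.10) had an interval that held 0 in the control-labelled library. The summed level was 5056 and 5281 CPM in endothelial-like cells, between those of the low and the high biliary clusters.

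With each cell thinned to 1000 UMIs, at which no cell was left out, 42.7% (cKO-labelled) and 44.7% (control-labelled) of endothelial-like cells had a Fos UMI, against 16.4% and 17.7% of biliary cells. Before thinning these shares were 64.6% and 69.3%, against 39.3% and 33.9%. Junb was found in 46.3% and 67.5% of endothelial-like cells against 21.0% and 27.0% of biliary cells. Klf6 was found in 22.0% and 25.4% against 46.5% and 51.9%. At least 5 members were found in 20.7% and 31.6% of endothelial-like cells and in 10.97% and 15.93% of biliary cells. No cell class here is known to lack these transcripts, so the share due to free RNA was not measured.

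Between the libraries, Junb was also lower in the cKO-labelled endothelial-like cells (173 against 377 UMIs, log2 ratio -0.64, interval -0.91 to -0.38). Ier2 (22 against 33 UMIs) and Zfp36 (70 against 129 UMIs) had intervals that held 0. All of these intervals cover counting error only, so they do not decide for any member whether the libraries differ. Jun was higher (0.24, interval 0.00 to 0.48). The summed members had a ratio of -0.06 (interval -0.17 to 0.04).

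**Figure D5:**
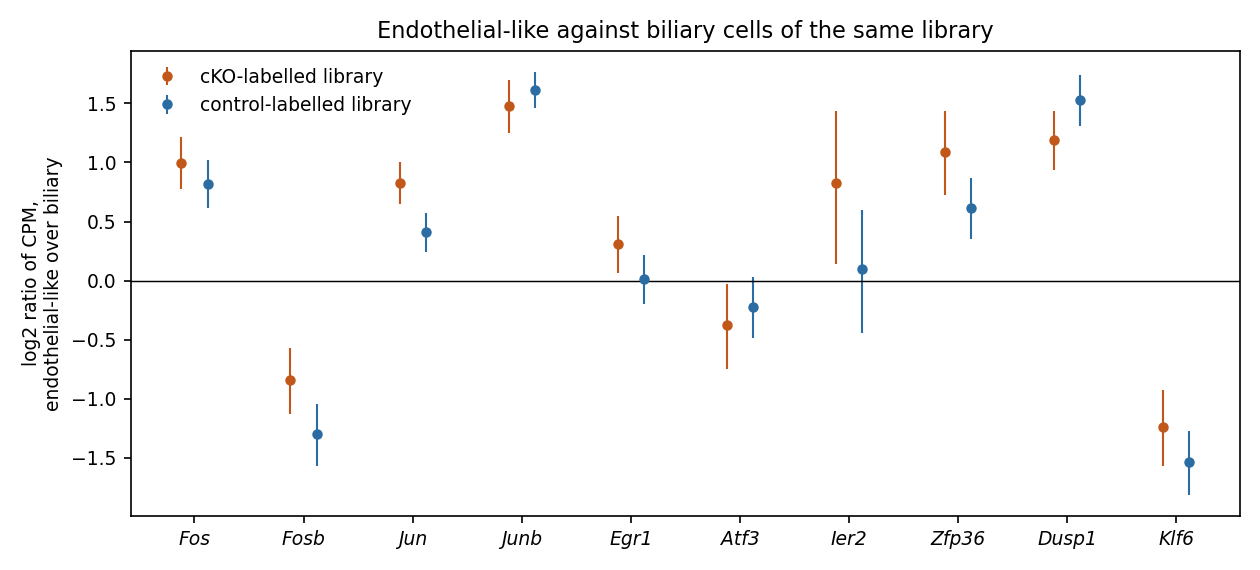
The log2 ratio of the level in endothelial-like over that in biliary cells of the same library, for each member, with 95% counting intervals as bars (orange, cKO-labelled; blue, control-labelled). Junb, Dusp1, Zfp36, Fos and Jun lie above 0 in both libraries, and Fosb and Klf6 below.

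Genes that varied most like the members were sought by the Pearson correlation over biliary cells, within wells and in thinned cells, with the summed members. Ranked by the lower value of the 2 libraries, the leading non-members were Hspa1a, Ifrd1, Hspa1b, Hsp90aa1, Kansl1l, Btg2, Ccn1, Chka and Dnajb1. That lower value ran from 0.37 for Hspa1a to 0.28 for Dnajb1, beside a median of -0.01 over 6928 genes. The points are cells of 1 library that share its depth, so the values are a description. Hspa1a, Hspa1b, Hsp90aa1 and Dnajb1 encode heat shock chaperones. Hspa1a and Hspa1b are near-identical copies between which reads can be split, so their separate values are uncertain. Btg2 encodes an antiproliferative early response protein, and Ccn1 a secreted matrix protein of the early response. Of the members, which are part of the sum and so had to correlate with it, Atf3 (0.55) was highest and Ier2 (0.14) lowest.

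Heat shock genes were therefore set beside the members in the high clusters. Of 10 heat shock genes, 8 were at least 2-fold higher in the Hp cluster than in the other cKO-labelled biliary cells, and 7 (cKO-labelled) and 8 (control-labelled) in the Adgrv1 cluster. Hspa1a stood at 241 CPM in the Hp cluster against 28.3 CPM in the other cells, and at 459 CPM in the Adgrv1 cluster of the control-labelled library against 27.5 CPM. In the Dnah12 cluster 0 of 10 passed 2-fold in either library, and Hspa1a stood at 65.4 and 96.9 CPM, below the other biliary cells (79.0 and 112 CPM). The Adgrv1 and Hp clusters thus carried members and heat shock genes together, and the Dnah12 cluster had high member levels with no heat shock gene at 2-fold. Endothelial-like cells had Hspa1a, Hspa1b and Hsph1 at least 2-fold above biliary cells in both libraries. The part of cell handling in these levels was not tested.

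Of the other early response genes, some were at least 2-fold higher in each of these clusters. Over all genes tested that share was 5.29% in the Hp cluster. It was 5.39% (cKO-labelled) and 4.59% (control-labelled) in the Adgrv1 cluster, and 4.68% and 4.6% in the Dnah12 cluster. Of 13 early response transcription factors with enough UMIs in the cKO-labelled library, 2 were at least 2-fold higher in the Hp cluster (Nr4a1, Csrnp1) and 4 in the Adgrv1 cluster (Klf4, Nr4a1, Nr4a3, Csrnp1); of 12 in the control-labelled library, 4 were (Myc, Nr4a1, Maff, Csrnp1). Of 20 feedback regulators, 4 passed in the Hp cluster and 5 in the Adgrv1 cluster, and of 19 in the control-labelled library 5 passed in the latter. Btg2, Gadd45b, Sgk1 and Rhob were among those in the Hp cluster and in the Adgrv1 cluster of each library. In the Dnah12 cluster 2 of 13 and 2 of 12 early transcription factors passed, as did 2 of 20 (Btg2, Sgk1) and 1 of 19 (Sgk1) feedback regulators. The genes named from these lists by cluster were chosen after their values were seen. Ccn1 stood at 2162 CPM in the Adgrv1 cluster of the control-labelled library against 426 CPM in the other cells, and at 1480 CPM in the Hp cluster against 345 CPM. In the Adgrv1 cluster of the cKO-labelled library Ccn1 was under 2-fold higher (1150 against 605 CPM), and in the Dnah12 cluster it stood at 323 against 620.4 CPM (cKO-labelled) and 962 against 754 CPM (control-labelled). Of the kinases and factors upstream, 1 of 16 passed in the Hp cluster (Elk3), and 0 passed in the Adgrv1 and Dnah12 clusters of either library.

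Between the libraries, those lists were split. Of 16 early response transcription factors tested (17 in the list), 11 were lower and 5 higher in the cKO-labelled biliary cells, with a median log2 ratio of -0.27. The lowest was Egr2 (-0.92), a zinc finger relative of Egr1, and the highest Fosl2 (0.61), a further Fos relative. Of 21 feedback regulators tested (23), 10 were lower and 11 higher (median 0.02), from Rhob (-1.16), a small GTPase, to Dusp4 (0.85), a phosphatase of the same family as Dusp1.

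Of 11 secreted and surface early response genes tested (13), 6 were lower and 5 higher (median -0.19). The chemokine Cxcl1 was lowest (-0.39). Ptgs2, the inducible prostaglandin synthase, was highest (2.25, 98.2 against 20.7 CPM). Of 16 upstream kinases and factors tested (17), 5 were lower and 11 higher (median 0.08), from the kinase Map2k2 (-0.51) to the ternary complex factor Elk3 (1.13). Of the 10 heat shock genes, 7 were lower and 3 higher (median -0.20), from Hspb1 (-0.53) to Hsph1 (0.68). Beside the median of -0.07 over all genes, the early transcription factors had a median closest to that of the members.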

How the data were processed

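The assay was split-pool barcoding of fixed whole cells (Evercode kit of Parse Biosciences), primed with random hexamers and oligo(dT), per the labels' protocols. The authors deposited whole-number UMI counts per cell and gene, with gene and cell tables; the submitters' processing notes name build GRCm39. The aligner, annotation release and choice of cells are not given in the sources used here.

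Cells with at least 500 genes, 1000 UMIs and at most 15% mitochondrial UMIs were kept. Scrublet marked 12 of 6362 cells (0.189%), too few to have worked; they were removed. Cells of both libraries were clustered with scanpy 1.11.5 (2000 variable genes, 30 components, 15 neighbours, Leiden resolution 0.5) without Sox9, the members and the other response genes, and classes were named from marker lists. UMIs were summed per library, well or cluster and scaled to CPM. Log2 ratios add 0.5 counts, with exact conditional binomial 95% intervals; levels have Poisson and shares Clopper-Pearson intervals, all for counting error only. Genes with at least 200 UMIs were tested. Alternatives used edgeR 4.0.16 TMM factors and DESeq2 1.42.0 size factors. The scripts were tested on simulated data. Named genes were the 10 members, the highest and lowest of each response list, 3 leading genes per cluster and the 10 genes most correlated with the members, of which 1 is not reported here. Members and lists were chosen with earlier results of these data known.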

Additional observations from a re-analysis of the deposited data

How the results depend on the processing

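The median log2 ratio of the members was -0.29 as reported and -0.23 with TMM factors, -0.22 with DESeq2 size factors, -0.35 with the stricter cell filter, -0.35 as a mean over cells and -0.092 at an equal mix of clusters. It ran from -0.35 to -0.16 with a well left out, the latter without D9. The count of members at least 1.5-fold lower was 1 at an equal mix and 2 or 3 with a well left out; the count lower at any size was 6 at an equal mix and 6 to 9 with a well left out. Signs changed for Fos as a mean over cells (-0.033) and without B3 (-0.13, against up to 0.17 without another well), for Fosb at an equal mix (0.20) and without D9 (0.14, against down to -0.28), for Jun at an equal mix (0.087) and without D9 (0.0087, against down to -0.33), for Atf3 (0.088) and Dusp1 (-0.32) at an equal mix, and, under the stricter filter, for Egr1 (-0.046) and Ier2 (-0.10) in endothelial-like over biliary cells of the control-labelled library. Junb, Egr1, Ier2, Zfp36 and Klf6 kept a negative ratio between the libraries under every alternative run, with Zfp36 from -1.05 to -0.30 and Egr1 from -0.47 to -0.08. The median co-detection ratio was 1.14 and 1.12 with the expectation within well and cluster, 1.39 and 1.38 with cells thinned to 1000 UMIs, and 1.21 to 1.23 and 1.18 to 1.22 with a well left out (cKO-labelled, control-labelled). The highest over the lowest cluster level in the control-labelled library was 8.21-fold at resolution 1.0, against 4.50-fold. With a gene minimum of 20 UMIs, 16.3% of all genes were at least 1.5-fold lower and 8.54% higher, and 5.03% and 4.14% at least 2-fold. The causes were not tested, other than that an equal mix leaves out the Hp cluster. TMM and DESeq2 factors moved all ratios by 0.06 and 0.07. With 1 library per group, depth limits only counting error. No paired analysis was possible because each group holds 1 library.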
